A study of Mus musculus with 8 samples.

Results

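Genes of lung surfactant and of airway secretions were followed in RNA from mouse hearts. The 9 genes were chosen by their female over male ratios at 2 and 8 months, the values reported here, so these ratios are given as a description with no test. They are 9 of 9607 rows of the deposited table, with 1 probe each and a value on all 8 arrays, and all 9 are among the 7812 rows with enough values to be compared at both ages. Of these, 6 are alveolar (Sftpc, Sftpd, Napsa, Slc34a2, Ctsh and Ager) and 3 are airway secretory (Scgb1a1, Scgb3a1 and Bpifb1).

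The study compared whole hearts of female and male C57BL/6 mice, an inbred laboratory strain, at 2 and 8 months of age; the labels name no treatment or allele. Each of the 4 pools held RNA of 6 hearts of 1 sex and age, and 4 two-colour cDNA arrays per age set the female pool against the male pool of that age. The dye of the female pool was Cy3 for replicates 1 and 3 and was swapped to Cy5 for replicates 2 and 4. The 4 arrays of an age are technical repeats of 1 pool pair, so the SD beside a value is the spread of arrays and not of mice, and there is no test across animals at either age.

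Pulmonary surfactant is a film of lipids and proteins that lowers surface tension in the alveoli, and it is made by alveolar type 2 cells. Surfactant protein C is made almost only by these cells, which also make the phosphate transporter Slc34a2 and the proteases Napsa and Ctsh that process surfactant proproteins. Ager, the receptor for advanced glycation end products, marks the flat alveolar type 1 cells that face the air. Along the conducting airways, club and mucous cells secrete small secretoglobins such as Scgb1a1 and Scgb3a1 and lipid-binding proteins of the BPI fold family such as Bpifb1.

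All values below are log2 ratios of the female over the male pool, the mean of both dye orientations, so 1 stands for a 2-fold higher signal in the female pool. The table holds ratios and no signal levels, so the heart origin of the RNA could not be checked by the level of heart muscle genes, nor can any gene be called absent or near background. A gene was called by size at an age when its mean ratio reached 1.5-fold and every array of that age had the same sign. Neither the labels nor the table state which dye is the numerator. Cy5 over Cy3 is the reading under which Xist, expressed from the inactive X of females, was positive and the Y-linked genes Kdm5d and Eif2s3y negative, so these genes set the direction and are no separate check of it. Under that reading their signs were the same on all 8 arrays, in both dye orientations. On replicates 1 and 2 at 8 months the ratios drifted along the probe number, with a running median that varied by 0.51 and 0.82 (SD) against 0.035 to 0.074 on the other 6 arrays. For the members the 8-month values are therefore also given from replicates 3 and 4. For Bpifb1 and Sftpc they are also given with the drift subtracted. Most 8-month values of other genes rest on all 4 arrays and include this drift.

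At 2 months, the female pool gave higher signals for all 3 airway secretory genes and for 2 of the 6 alveolar genes, Sftpc and Sftpd. At 8 months only Sftpc among the 9 was called by size, at a larger ratio than at 2 months, while the airway genes were near or below 0. Hence 5 of 9 members were called higher at 2 months and 1 of 9 at 8 months; among all rows tested, 2.41% were called higher at 2 months and 1.68% at 8 months. No member was called lower at either age; of all rows, 1.77% were at 2 months and 1.31% at 8 months. Only Sftpc was called higher at both ages, as were 0.294% of all rows. By sign alone, 6 of 9 members were positive and 2 of 9 negative on all 4 arrays at 2 months, where 17.7% of all rows were positive and 18.1% negative on all 4. At 8 months 2 of 9 were positive and none negative on all 4, against 5.79% and 4.85% of all rows. In bulk RNA, more cells of a type and more RNA per cell cannot be told apart.

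**Figure D1:**
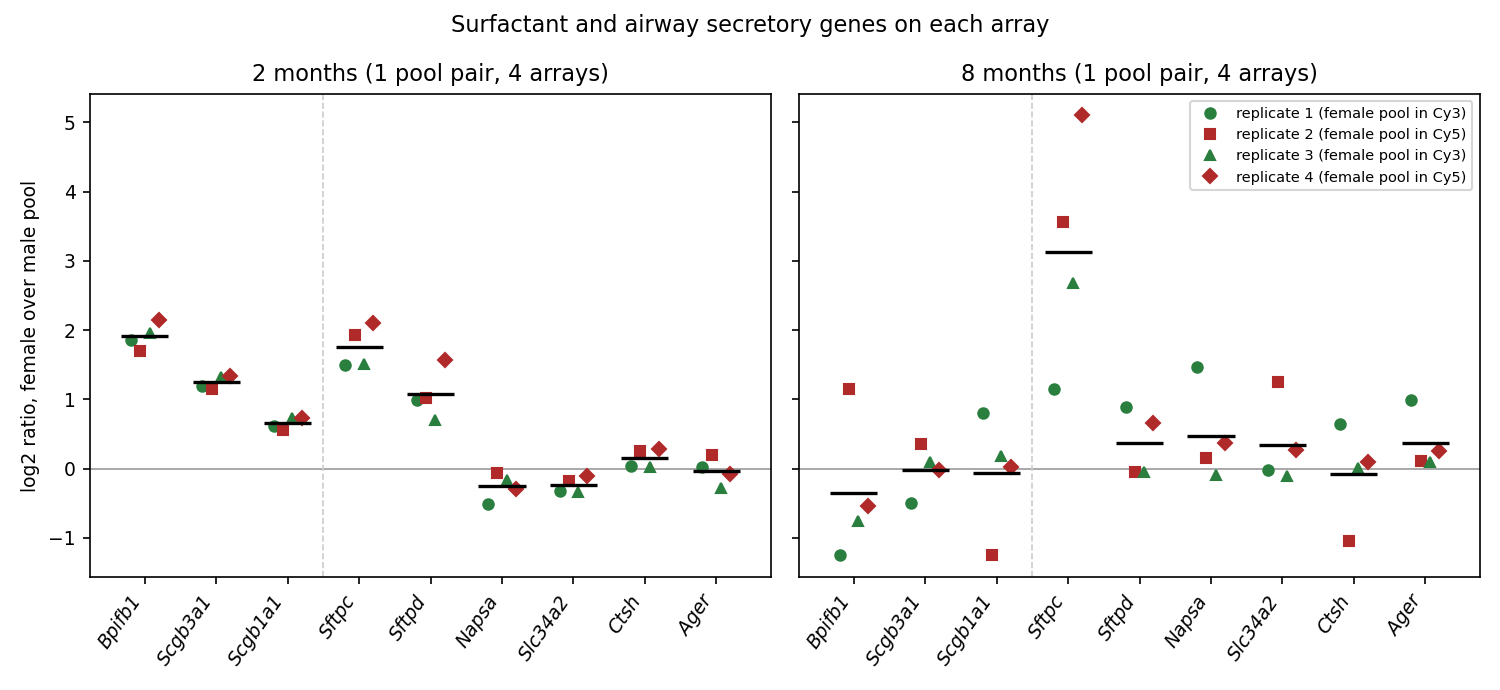
Log2 ratio of the female over the male pool (vertical axis) for the 9 genes (horizontal axis) on the 4 arrays at 2 months (left) and at 8 months (right); points are single arrays, colour gives the dye of the female pool and black bars are the means of both dye orientations. At 2 months Bpifb1, Scgb3a1, Scgb1a1, Sftpc, Sftpd and, closer to 0, Ctsh lie above 0 on all 4 arrays, and at 8 months Sftpc and Ager do.

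At 2 months the 3 airway secretory genes were called with array SDs of 0.09 to 0.19. Bpifb1, a secreted protein of the airway and nasal mucosa, was at 1.85, 1.71, 1.97 and 2.15 on replicates 1 to 4, a mean of 1.92 ± 0.19 (SD, n = 4 arrays) or 3.78-fold. The orientations gave close values, with means of 1.91 when the female pool was in Cy3 and 1.93 when it was in Cy5. This was the 23rd highest ratio of 7812 rows.

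Scgb3a1, a secretoglobin of the larger airways, was at 1.20, 1.16, 1.33 and 1.34 on the same arrays, a mean of 1.26 ± 0.09 (SD) or 2.39-fold. Scgb1a1, the main secreted product of club cells, was at 0.62, 0.56, 0.74 and 0.73, a mean of 0.66 ± 0.09 (SD) or 1.58-fold. The arrays of the 3 genes did not overlap with one another at 2 months, in the order Bpifb1, Scgb3a1, Scgb1a1. Scgb1a1 lay just inside the 1.5-fold limit of the size call and would not be called at 2-fold.

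At 8 months the same 3 genes lost this pattern. Bpifb1 was at -1.25, 1.15, -0.76 and -0.53 on replicates 1 to 4, a mean of -0.35 ± 1.04 (SD, n = 4 arrays). The positive array is replicate 2, where the running median at the Bpifb1 probe stood at 1.09. On replicates 3 and 4 Bpifb1 was at -0.65, and with the drift subtracted from all 4 arrays it was at -0.52. Leaving out replicate 2 at 8 months gave -0.77 with 1 sign on the other arrays, and leaving out replicate 4 gave 0.074. On replicates 3 and 4 alone Bpifb1 would be called lower, as were 1.08% of all rows, and Sftpc was the only member called higher, as were 1.98% of all rows.

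Scgb3a1 at 8 months was at -0.50, 0.35, 0.10 and -0.02, a mean of -0.017 ± 0.36 (SD). Scgb1a1 was at 0.81, -1.25, 0.19 and 0.03, a mean of -0.055 ± 0.87 (SD). Replicates 1 and 2 gave the lowest and the highest value of both genes, and there the drift at the Scgb1a1 probe was 0.46 and -1.03. On replicates 3 and 4 the means were 0.041 for Scgb3a1 and 0.11 for Scgb1a1.

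The arrays of the 2 ages did not overlap for Bpifb1 and Scgb3a1, which were higher at 2 months by 2.27 and 1.27. Thus 2 of 9 members were higher at 2 months by at least 1.5-fold with no overlap, against 1.72% of all rows. None was higher at 8 months by this rule, as were 1.57% of all rows. For Scgb1a1 the difference of the ages was 0.72, and its arrays overlapped through replicate 1 at 8 months. With replicates 3 and 4 alone at 8 months its arrays did not overlap, at a difference of 0.55, which is below 1.5-fold. Each age is 1 pool pair, so these differences compare pools and not ages of animals.

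Promoters were available from RefSeq (build GRCm38.p6) for 4 of the 9 members. The 250 bases before the first start are shown for Scgb3a1 and Bpifb1, the pair whose arrays did not overlap between the ages, and for Slc34a2 and Ager, alveolar genes that were not called at either age. Capitals mark matches to motifs of factors that act in lung epithelium, searched on both strands: TNAAGTG for NK2 homeobox factors, TNTTTAC for forkhead factors and TTGCNNAA for C/EBP factors.
Scgb3a1 (chr11:49663345-49663594, + strand): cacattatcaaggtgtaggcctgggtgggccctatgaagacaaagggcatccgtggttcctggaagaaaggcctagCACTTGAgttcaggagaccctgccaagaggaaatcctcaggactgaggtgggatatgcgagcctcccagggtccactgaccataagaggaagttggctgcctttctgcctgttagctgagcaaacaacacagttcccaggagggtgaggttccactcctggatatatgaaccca
Bpifb1 (chr2:154190568-154190817, + strand): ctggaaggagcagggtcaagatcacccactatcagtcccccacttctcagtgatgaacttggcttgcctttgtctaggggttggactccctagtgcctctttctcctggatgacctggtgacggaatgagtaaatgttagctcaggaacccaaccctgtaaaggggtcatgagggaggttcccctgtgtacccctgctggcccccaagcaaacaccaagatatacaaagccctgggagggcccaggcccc
Slc34a2 (chr5:53049103-53049352, + strand): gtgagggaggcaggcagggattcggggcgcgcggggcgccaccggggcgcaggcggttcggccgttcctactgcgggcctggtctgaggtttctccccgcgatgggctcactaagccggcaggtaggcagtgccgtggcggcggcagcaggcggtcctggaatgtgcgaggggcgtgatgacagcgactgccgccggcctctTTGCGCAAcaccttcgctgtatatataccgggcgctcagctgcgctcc
Ager (chr17:34597600-34597849, + strand): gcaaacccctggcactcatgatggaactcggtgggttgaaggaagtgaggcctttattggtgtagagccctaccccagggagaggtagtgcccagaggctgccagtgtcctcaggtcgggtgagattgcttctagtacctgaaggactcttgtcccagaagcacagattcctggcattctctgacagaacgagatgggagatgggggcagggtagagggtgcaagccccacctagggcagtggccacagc
Scgb3a1 held 1 NK2 homeobox match, CACTTGA on the minus strand, 174 to 168 bases before the start. Slc34a2 held 1 C/EBP site, TTGCGCAA, 48 to 41 bases before the start, which reads the same on both strands. None of the 3 motifs matched in the windows of Bpifb1 and Ager. Among 32851 promoter windows of the same length, 10.1% held the NK2 homeobox motif, 10.9% the forkhead motif and 9.56% the C/EBP motif, so a match in any single window is a description only.

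Sftpc, the precursor of surfactant protein C, was the one gene with a large ratio at both ages. At 2 months it was at 1.49, 1.93, 1.52 and 2.11 on replicates 1 to 4, a mean of 1.76 ± 0.31 (SD, n = 4 arrays) or 3.39-fold. The Cy3 and Cy5 orientations of the female pool gave 1.51 and 2.02. Its arrays overlapped with those of Bpifb1 at that age.

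At 8 months Sftpc was at 1.14, 3.57, 2.68 and 5.10, a mean of 3.12 ± 1.65 (SD) or 8.71-fold. This was the 4th highest ratio of all rows, and the 2nd highest on replicates 3 and 4, where the mean was 3.89. Every array was positive, but the orientations differed more than at 2 months, with 1.91 for Cy3 and 4.33 for Cy5, and replicate 4 alone was at 5.10. With the drift subtracted, the 4 arrays were at 1.52, 2.50, 2.65 and 5.08, a mean of 2.94. The arrays of the ages overlapped through replicate 1 at 8 months; on replicates 3 and 4 both values lay above all 4 arrays at 2 months. With these 2 arrays for 8 months, Sftpc was the 1 member that was at least 1.5-fold higher at 8 months without overlap, and Bpifb1, Scgb3a1 and Sftpd were at least 1.5-fold higher at 2 months. Among all rows these were 3.24% and 2.59%.

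Sftpd, the collectin surfactant protein D, which binds microbes and is made by alveolar type 2 and club cells, was at 1.00, 1.01, 0.70 and 1.58 at 2 months. The mean was 1.07 ± 0.36 (SD, n = 4 arrays) or 2.10-fold, and its arrays overlapped with those of both secretoglobins. At 8 months it was at 0.89, -0.05, -0.04 and 0.66, a mean of 0.37 ± 0.48 (SD), with 2 arrays on each side of 0. On replicates 3 and 4 it was at 0.31.

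The other 4 alveolar genes stayed within 1.5-fold at both ages. Napsa, an aspartic protease that cleaves surfactant proproteins, was at -0.50, -0.06, -0.17 and -0.29 at 2 months, a mean of -0.26 ± 0.19 (SD). Slc34a2, which recovers phosphate from surfactant, was at -0.32, -0.17, -0.33 and -0.10, a mean of -0.23 ± 0.12 (SD). All 4 arrays were negative for both genes, whereas Sftpc, from the same cell type, was positive on the same arrays.

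Ctsh, a cysteine protease of lysosomes and of lamellar bodies, was at 0.15 ± 0.14 (SD), with all 4 arrays between 0.028 and 0.29. Ager was at -0.036 ± 0.20 (SD), with 2 arrays on each side of 0. At 8 months Napsa was at 0.47 ± 0.69, Slc34a2 at 0.35 ± 0.62, Ctsh at -0.072 ± 0.71 and Ager at 0.37 ± 0.43 (SD, n = 4 arrays each). Over all 4 arrays the values of Napsa, Slc34a2 and Ctsh lay on both sides of 0, and those of Ager between 0.098 and 1.00. On replicates 3 and 4 the 4 genes were at 0.14, 0.085, 0.049 and 0.18; both arrays were positive for Ctsh, at 0.0044 and 0.093, and for Ager, at 0.098 and 0.26, and 1 of the 2 for Napsa and Slc34a2. Without replicate 3 at 8 months, Napsa at 0.87 and Ager at 0.59 were called by size. Among all rows the size rule then gave 533 calls in either direction, against 233 with all 4 arrays.

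**Figure D2:**
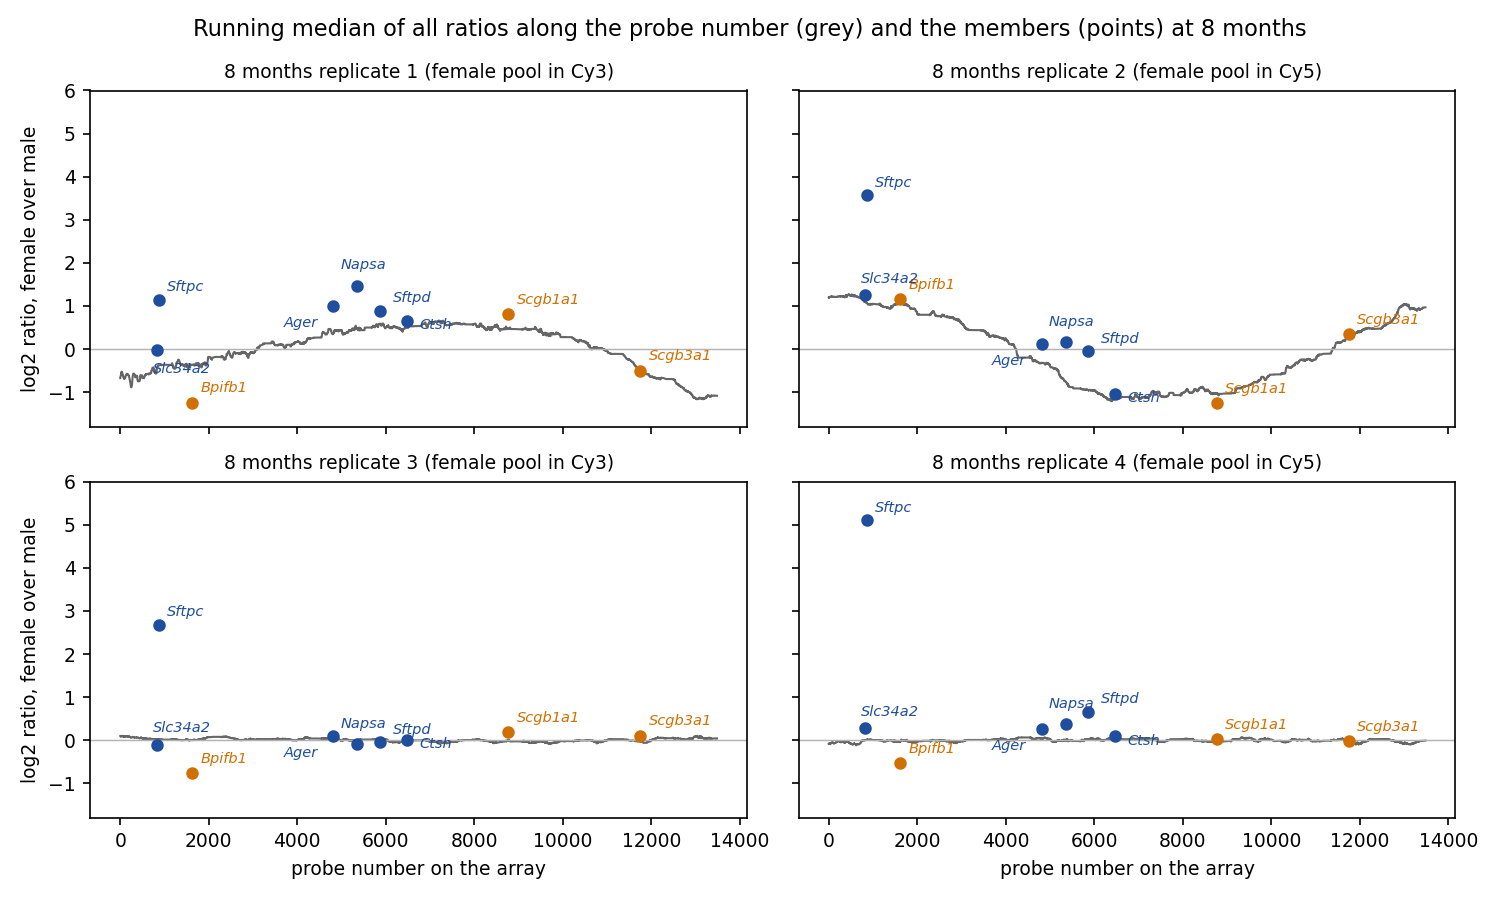
Running median over 201 rows of the log2 ratio of the female over the male pool (grey line, vertical axis) along the probe number (horizontal axis) on each array at 8 months, with the 6 alveolar genes in blue and the 3 airway secretory genes in orange. On replicates 1 and 2 several genes lie along the drifting line, among them Ctsh and Scgb3a1, while Sftpc lies above it on all 4 arrays.

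Set side by side, the 3 airway secretory genes had a median of 1.26 at 2 months and the 6 alveolar genes a median of 0.058, with array medians from 1.16 to 1.34 and from -0.069 to 0.22. At 8 months the medians were -0.055 for the airway genes and 0.37 for the alveolar genes, or 0.041 and 0.16 on replicates 3 and 4. The median of all rows tested was -0.016 at 2 months and -0.032 at 8 months. The alveolar median hides 2 kinds of gene at 2 months: the surfactant proteins Sftpc and Sftpd at 1.76 and 1.07, and the remaining 4 between -0.26 and 0.15. Counting Sftpd with the airway genes gave medians of 1.16 and -0.036 at 2 months.

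**Figure D3:**
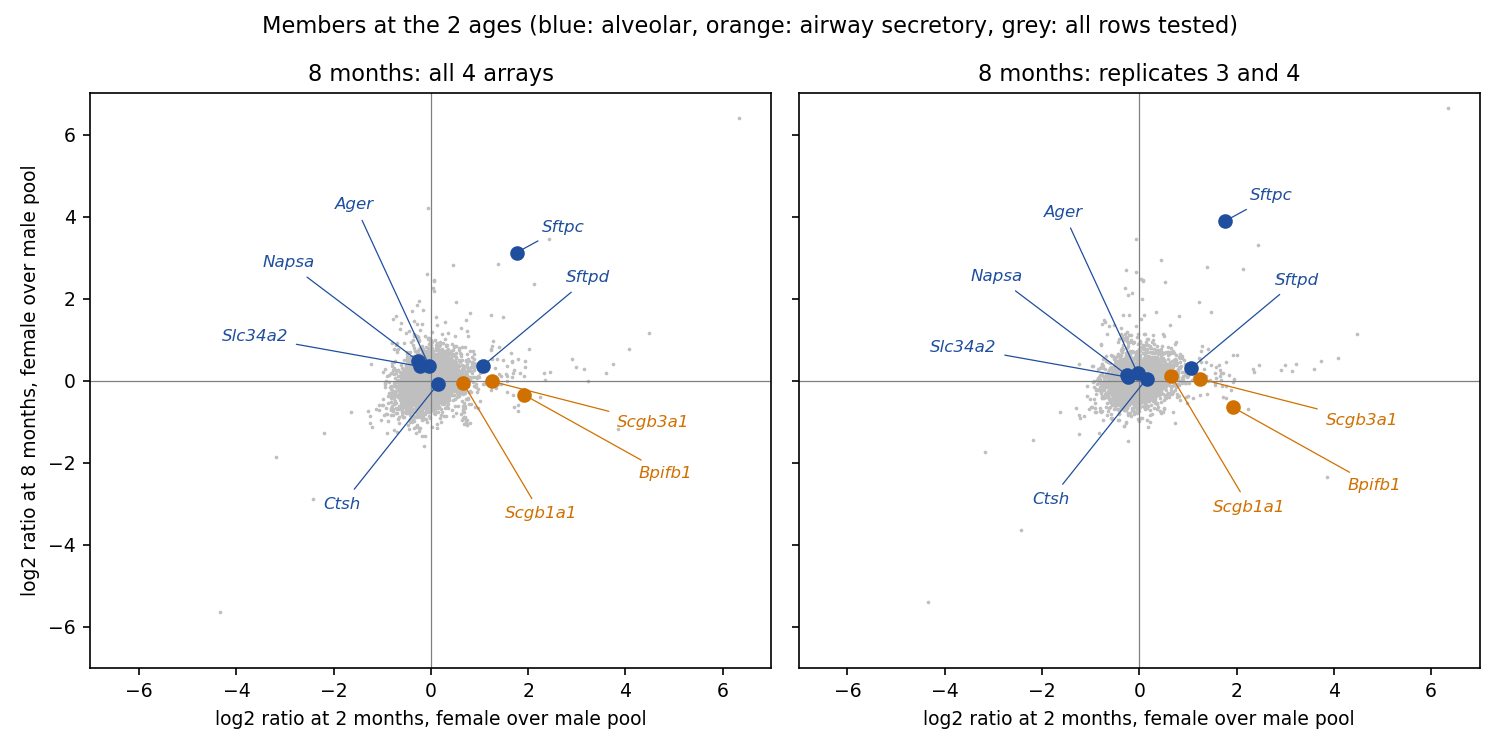
Log2 ratio of the female over the male pool at 2 months (horizontal axis) against 8 months (vertical axis), from all 4 arrays at 8 months (left) and from replicates 3 and 4 (right); grey points are the rows tested, blue points alveolar and orange points airway secretory genes. Sftpc stands apart at 1.76 and 3.12, and Bpifb1 and Scgb3a1 lie far along the 2-month axis with 8-month ratios of -0.35 and -0.017.

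Other genes of the same cell types were taken from lists of known markers. Of 30 airway secretory genes listed, 17 were on the array, 3 of them the members. Of the 14 further airway secretory genes tested, 6 were called higher and none lower at 2 months, and 1 was called higher at 8 months. Of all rows, 2.41% were called higher and 1.77% lower at 2 months, and 1.68% and 1.31% at 8 months. These shares stand beside the counts of every list below. The median of the 14 genes was 0.42 at 2 months and -0.074 at 8 months. On replicates 3 and 4 it was -0.026, without Tff2 and Clca1, which had no value on replicate 4. Cyp2f2, a cytochrome P450 typical of mouse club cells, was at 2.14, 1.67, 2.02 and 1.85 at 2 months, a mean of 1.92 ± 0.21 (SD), and at -0.22 ± 0.58 at 8 months. Ltf, the iron-binding lactoferrin of mucosal secretions and neutrophils, was at 2.01 ± 0.29 and remained called at 8 months at 0.77 ± 0.38.

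The aldehyde dehydrogenases Aldh1a7 and Aldh1a1 were at 0.88 ± 0.17 and 0.68 ± 0.12 at 2 months, and the trefoil peptide Tff2 was at 0.88 ± 0.41 and Clca1, a secreted protein of goblet cells, at 0.87 ± 0.63 (SD, n = 4 arrays each). At 8 months these 4 genes were at 0.34, -0.03, -0.13 and 0.73, without 1 sign on the arrays. Tff2 and Clca1 had values on 3 arrays at that age, and those of Clca1 ranged from -0.62 to 2.62. Of the 8 not called at 2 months, 4 had a mean above 0, namely Gsta3, a glutathione transferase, at 0.46, Retnla at 0.38, Selenbp1 at 0.10 and Ces1d at 0.06. The other 4 were below 0, with the goblet cell genes Agr2 and Spdef at -0.06 and -0.03, the protease inhibitor Slpi at -0.12 and Kcnk1 at -0.26.

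Of 35 alveolar type 2 genes listed 17 were on the array. Those other than the 5 members had a median of 0.047 at 2 months and -0.042 at 8 months over 12 genes. At each age 1 of the 12 was called higher and none lower. Cebpa, a transcription factor of type 2 cells and of fat and liver, was at 0.71 ± 0.25 (SD) at 2 months and -0.06 ± 0.34 at 8 months. Il33, an alarmin of lung epithelium and of stroma, was at 0.36 ± 0.38 and 0.78 ± 0.26. Abca3, the lipid transporter that fills lamellar bodies, was at 0.05 and -0.03, and the chemokine Cxcl15 at -0.08 ± 0.46 and 0.72 ± 0.69 (n = 3 arrays at 8 months). Hc, complement factor 5, was at -0.41 and -0.77. Of 3 further type 1 genes, none was called at either age, with Igfbp2 at 0.37 and 0.51, Clic5 at 0.06 and 0.30 and Vegfa at -0.31 and -0.50.

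Over both ages, limma with n = 2 pool pairs and Benjamini-Hochberg adjustment over all rows called 0.064% of rows higher and 0.0256% lower. It called 0 of the 14 airway secretory, 12 type 2 and 3 type 1 genes. At an unadjusted p below 0.05 there were 3, 2 and 2, beside 10.4% of all rows. The fit took the difference between the ages as its error, drawn toward a value shared by all rows. A ratio at 1 age only adds to that error, which makes a call after adjustment harder. Its counts for the lists, here and below, therefore cannot decide whether a list differed at 1 age.

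Markers of epithelium in general are shared by airway, alveolus, thymus and other organs. All 10 tested genes had a mean above 0 at 2 months, though Elf3 and Ehf not on every array. Their median was 0.46, beside -0.016 for all rows tested, and 2 of 10 were called higher. These were Krt8, a keratin of simple epithelia, at 1.45 ± 0.49 (SD), and the adhesion protein Epcam at 1.07 ± 0.39. At 8 months the median was 0.023, none was called, and Krt8 and Epcam were at -0.07 and 0.40. Krt19, another keratin, was at 0.48 and 0.18 at the 2 ages, and the tight junction gene Cldn7 at 0.44 and 0.31. Of 5 ciliated cell genes tested none was called at either age, with Tppp3, a tubulin-binding protein, at 0.38 ± 0.05 and -0.35 ± 1.39. Dynlrb2, Spa17 and Mlf1 were at 0.09, 0.07 and -0.02 at 2 months and at -0.32, -0.27 and -0.11 at 8 months. On replicates 3 and 4 at 8 months they were at -0.0091, 0.21 and -0.085, and Tppp3 was at 0.14. Krt5, the keratin of basal cells, was at -0.29 and -0.50. limma called 0 of the 10 epithelial, 5 ciliated and 1 basal genes over both ages, with 2, 0 and 1 at an unadjusted p below 0.05 (10.4% of all rows).

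Thymus markers were higher in the same female pool as the airway genes. All 12 tested thymus genes were called higher at 2 months, with array medians of 2.24 to 3.04, and 1 of 12 was called at 8 months, with array medians of -0.15 to 0.53. The 1 at both ages was Rag1, which cuts DNA to assemble antigen receptors, at 4.48 ± 0.60 (SD) and 1.15 ± 0.90. The others included Ccl25, a chemokine made by thymic epithelium, at 2.91 ± 0.21 (SD) and 0.52 ± 0.81, and Lat, a T cell adaptor, at 3.22 ± 0.17 and -0.01 ± 0.52. The T cell co-receptors Cd8a and Cd4 were at 3.74 ± 0.93 and 2.33 ± 0.69 at 2 months and at 0.41 and 0.19 at 8 months. Dntt, which adds bases at receptor gene joints, was at 3.60 ± 0.61 and 0.19, and Tbata at 3.14 ± 0.41 and 0.29 (n = 3 arrays at 8 months). The signalling gene Rasgrp1 was at 2.46 ± 0.61 and 0.22, and the chromatin organiser Satb1 at 1.56 ± 0.34 and 0.13. Of the CD3 chains, Cd3g was at 2.35 ± 0.56 and 0.0045, Cd3e at 1.92 ± 0.42 and 0.11, and Cd3d, the lowest of the 12 at 2 months, at 0.69 ± 0.17 and -0.31. Over both ages limma called 0 of the 12, with 9 at an unadjusted p below 0.05, where 10.4% of all rows were. Most of these genes were high at 2 months only, which adds to the error of this fit, and calls were adjusted over all rows. The list was chosen with earlier results known, so these counts are a description. Of 5 brown fat genes, 1 was called higher at 2 months, the uncoupling protein Ucp1 at 2.99 ± 0.21, and none at 8 months. Elovl3, Cox8b and Cpt1b were at -0.07, -0.02 and -0.28 at 2 months and at -0.35, -0.24 and -0.42 at 8 months. The 10 heart muscle genes tested were at a median of 0.007 at 2 months and -0.31 at 8 months (-0.12 on replicates 3 and 4). None was called by size. At 8 months the lowest were Mb at -0.68 ± 0.92 and Tnnt2 at -0.66 ± 0.75 (SD), beside 0.02 and 0.01 at 2 months. Both were positive on replicate 3 at 8 months, and on replicates 3 and 4 they were at -0.12 and -0.21. Myh6 and Ryr2 were at -0.28 and -0.15 at 2 months and at -0.36 and -0.39 at 8 months. The part of tissue other than heart in the ratios of Sftpc, Sftpd and the airway genes was not tested.

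**Figure D4:**
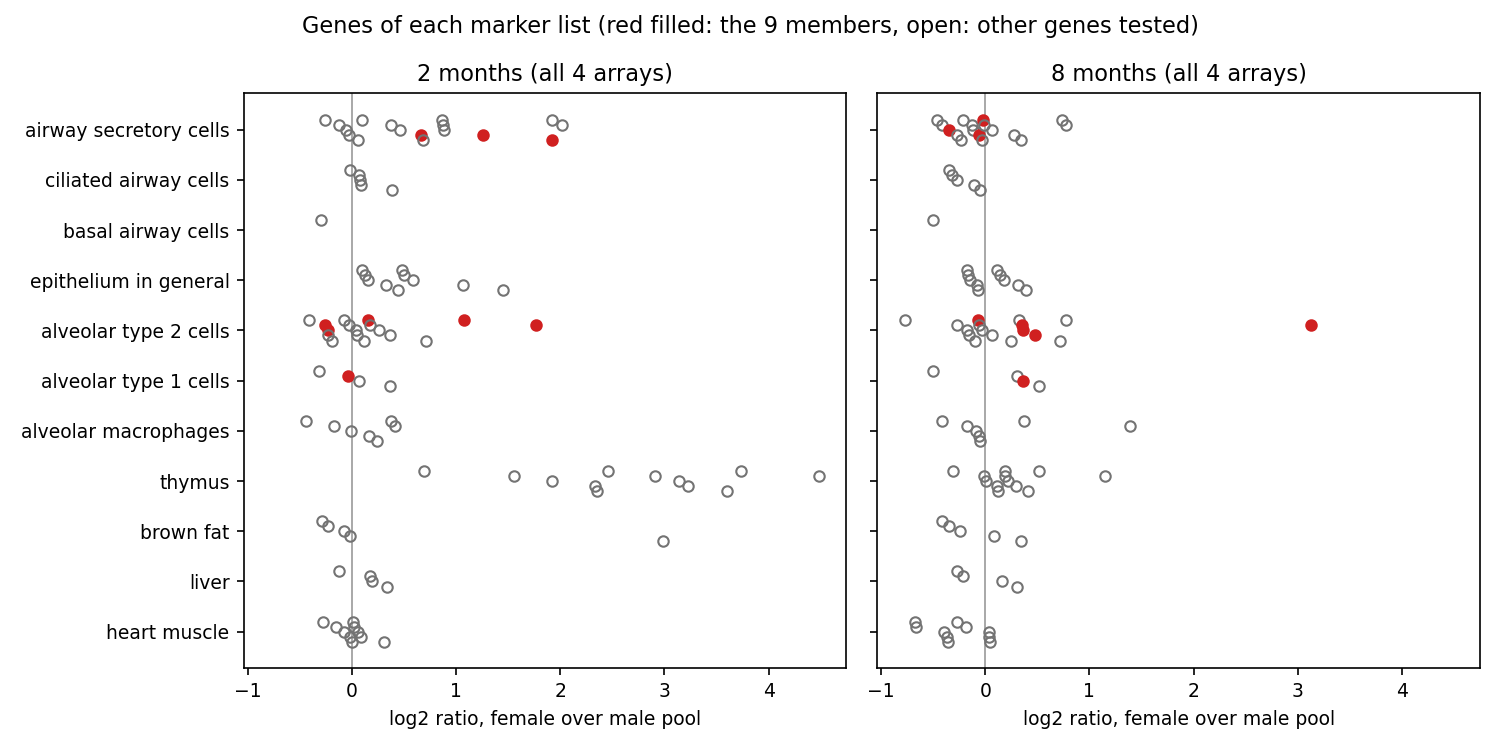
Log2 ratio of the female over the male pool (horizontal axis) for every tested gene of 11 marker lists (rows) at 2 months (left) and 8 months (right); filled red points are the 9 members and open points other genes. At 2 months airway secretory genes reach 2.01 and thymus genes 4.48, and at 8 months Sftpc stands alone at 3.12.

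The rows most like 3 of the members were found by the smallest mean absolute difference from the member over the 8 arrays, among 5632 other rows with a symbol and all 8 values. These arrays share their pools and dyes, so the likeness is a description. None came close to Sftpc: the nearest was Gla, a lysosomal galactosidase, at a mean difference of 1.02, followed by Xist, Fxyd2, Cyp2b10 and Cd6 at up to 1.34. Gla was at 1.23 at 2 months and 1.61 at 8 months, below Sftpc at both ages.

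Scgb1a1 had close neighbours, namely Dpp4, Pstpip1, Pfkfb3, Slc25a1 and Spint1, at mean differences of 0.12 to 0.18. Dpp4, a surface peptidase, was at 0.69 and -1.27 on the drifting replicates 1 and 2 at 8 months, against 0.81 and -1.25 for Scgb1a1. These arrays were part of the selection, so the likeness there adds nothing to it. The drift at the Scgb1a1 probe on them was 0.46 and -1.03. The neighbours of Scgb3a1 were Socs1, Sit1, Gpd2, Rnf167 and Camk4, at 0.27 to 0.31. Of these Sit1, a membrane adaptor of lymphocytes, was the highest at 2 months with 1.41, beside 1.26 for Scgb3a1.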

How the data were processed

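Per the labels, TRIzol-extracted total RNA was pooled, reverse transcribed with Cy3 or Cy5 and hybridised in pairs. Per the labels, images were analysed with Agilent Feature Extraction 7.1.1. The deposited values were read as log10 ratios of Cy5 over Cy3; the labels state neither. The log10 scale was inferred from that program and from the form of the values, and every fold rests on it. The direction was set by Xist, Kdm5d and Eif2s3y, and every sign rests on it. Other normalization steps are not stated. There are no signal levels; precision is limited by the number of arrays.

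Values were put on the log2 scale and their sign set by the dye of the female pool. An exact 0 (6.38 to 13.9% of values per array, none in the members) counted as missing. Gene names came from the platform annotation and were updated by RefSeq gene ID (6600 of 6671 rows with 1 symbol matched), and rows of a symbol averaged. Rows needed 3 of 4 arrays at each age. The 2 age means entered limma version 3.58.1 (R version 4.3.3), tested on simulated data. Drift was the running median of 201 rows. Named genes were the members, list genes called by size, and up to 4 per list with the largest absolute mean over both ages. The 5 rows nearest to each of Sftpc, Scgb1a1 and Scgb3a1 were also named. Abca3, Elf3, Ehf, Mrc1 and the 8 airway genes not called at 2 months were named after their values were seen. The members and lists were chosen with earlier results of these data known. Alternatives were centring, scaling, drift removal, no filter, exact 0 kept, a 2-fold limit, replicates 3 and 4 at 8 months, and leaving out each array.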

Additional observations from a re-analysis of the deposited data

How the results depend on the processing

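Sftpc, Sftpd, Scgb3a1 and Bpifb1 at 2 months were called under all 9 alternatives run on that age, Scgb1a1 under 8 of 9 (not at 2-fold), and Sftpc at 8 months under all 10, between 2.54 and 3.89. At 8 months Bpifb1 was called lower under 2 of 10, and Napsa and Ager higher under 1 of 10 each. Leaving out 1 array moved the alveolar median from 0.019 to 0.097 at 2 months and from 0.14 to 0.59 at 8 months. The airway median moved from 1.21 to 1.30 and from -0.21 to 0.074; it also changed sign at 8 months with scaling, drift removal or replicates 3 and 4. Counts over all rows moved more. The size rule gave 326 rows at 2 months (318 to 371 without 1 array, 87 at 2-fold) and 233 at 8 months (376 to 533 without 1 array, 67 at 2-fold, 92 with arrays scaled, of which 63 were higher against 131 of 233). limma called 7 rows, 3 with arrays scaled, 4 with no filter, 1 with replicates 3 and 4 or with the drift removed, and 4 to 105 without 1 array. The age difference gave 257 rows (279 to 490 without 1 array), and 470 with replicates 3 and 4. The 470 were counted over rows with a value on both of these arrays, a different set from the 7812 rows behind the shares given above. With the replicate block, which differences same-numbered arrays of the 2 ages, the age difference gave 444 among all rows, and 4 of 9 members. Same-numbered arrays were all higher at 2 months for Sftpd, Scgb3a1 and Bpifb1. They were all higher at 8 months for Napsa and Slc34a2, with Slc34a2 just below 1.5-fold. The numbers name arrays and mark the dye; deviations of same-numbered arrays correlated at -0.17, -0.11, 0.39 and 0.42, and 2 of 4 arrays at 2 months correlated best with their own number, so the block is no pairing. Single probes were not run, since each member has 1 probe. The cause of these changes was not tested.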

Other observations

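Markers of alveolar macrophages and of liver gave the following ratios of the female over the male pool (log2). By size, 2.41% of all rows were called higher at 2 months and 1.68% at 8 months. Of 7 alveolar macrophage markers none was called at 2 months and 1 at 8 months, Chil3, a chitinase-like protein of these cells, which was at -0.17 ± 0.14 at 2 months and 1.39 ± 0.69 at 8 months (SD, n = 4 arrays). On replicates 3 and 4 it was at 1.11, and its arrays did not overlap between the ages. The remaining 6 lay between -0.44 and 0.42 at 2 months, with the nuclear receptor Pparg at 0.42, the lipid transporter Abcg1 at 0.38, the fatty acid binding protein Fabp4 at 0.24 and the mannose receptor Mrc1 at -0.44. The arrays of the ages did not overlap for these last 2 either, in opposite directions: Mrc1 was at 0.37 at 8 months, higher than at 2 months, and Fabp4 at -0.41, lower than at 2 months. Chil3, Mrc1 and Fabp4 also differed by at least 1.5-fold between the ages. By this rule 1.72% of all rows were higher at 2 months and 1.57% at 8 months. Of 4 liver genes none was called at either age, with the apolipoproteins Apoa2 and Apoa1 at 0.33 and 0.17 at 2 months and -0.21 and -0.27 at 8 months. Ttr was at 0.20 and 0.16 and Apob at -0.12 and 0.31 at the 2 ages. Over both ages limma called 0 of the 7 and 0 of the 4, and none of them had an unadjusted p below 0.05, where 10.4% of all rows did.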
